A study of Mus musculus with 6 samples.

Results

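Receptors through which autonomic transmitters and related peptides act on the heart were compared between control and Wt1 mutant hearts of E13.5 mouse embryos. The set holds 9 of the 46983 genes listed: Adcyap1r1, Adcyap1, Vipr1, Vipr2, Adrb1, Adra1a, Adra1b, Chrm2 and Adora1. They were picked by name, with earlier results of these same hearts known, so their values are a description of these hearts and not independent evidence. Each library held the RNA of 1 whole heart. There were 3 mutants of genotype TnnT2Cre;Wt1flox (replicates 1, 5 and 10) and 3 controls (replicates 2, 3 and 5), all on a C57BL/6 x DBA/2 background. The labels give the controls as wild type, whereas the study's methods describe them as Wt1 flox/flox embryos that lack Cre, so both groups would carry the floxed allele. In the mutants Cre is driven by the cardiac troponin T promoter, which acts in cardiomyocytes and, according to the study, also recombines in a fraction of the epicardium. Wt1 encodes a zinc finger transcription factor that is abundant in the epicardium.

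PACAP, encoded by Adcyap1, and the related peptide VIP act through 3 receptors that couple to Gs and raise cyclic AMP. The receptor encoded by Adcyap1r1 (PAC1) prefers PACAP, and those encoded by Vipr1 and Vipr2 bind both peptides. In the heart, noradrenaline acts on the beta1 receptor (Adrb1), which couples to Gs and raises rate and force, and on alpha1 receptors (Adra1a, Adra1b), which couple to Gq and phospholipase C. Acetylcholine slows the heart through the M2 muscarinic receptor (Chrm2), and adenosine does so through its A1 receptor (Adora1), both coupled to Gi.

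The hearts held between 44244665 and 56373393 counts each. Of the 17473 genes with enough counts to be tested, the quasi-likelihood fit of edgeR put 0 under an adjusted p of 0.05 and 1002 (5.73%) under an unadjusted p of 0.05, while DESeq2 gave 133 an adjusted p under 0.05 (0.69% of the genes it tested). Wt1 itself was at 40.0, 32.9 and 20.0 CPM (counts scaled to the size of the library) in control replicates 2, 3 and 5, and at 17.7, 33.3 and 35.7 CPM in mutant replicates 1, 5 and 10, so the groups overlapped (log2 fold change of mutant over control -0.10, SE 0.31, edgeR adjusted p = 0.990). Its level in whole hearts therefore does not check the genotype labels. Control replicate 5 stood apart in how its values varied with gene length: the rank correlation across 11795 genes between a gene's deviation from its mean over hearts and its length was -0.556 there, against values from -0.0622 to 0.464 in the other hearts. Control replicate 5 and mutant replicate 5 also held RNA of some foregut epithelial genes, such as Epcam, well above the other hearts. In whole hearts, fewer cells of a type and less RNA per cell cannot be told apart. The labels name no litter, culture or batch, so the spread is that between the hearts sequenced.

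Adcyap1r1 had the largest difference of the set and was lower in every mutant heart. The gene lies on chromosome 6 from 55451978 to 55501451 on the plus strand (GRCm38, GENCODE M21), and no other annotated exon overlaps its exons. Its counts were 1245, 1125 and 457 in control replicates 2, 3 and 5, against 105, 142 and 197 in the mutants (replicates 1, 5 and 10). These were 22.1, 19.6 and 10.4 CPM in the controls and 2.02, 2.71 and 3.91 CPM in the mutants. The groups did not overlap, the lowest control lying 2.65 times above the highest mutant, and control replicate 5 was well below the other controls. The mean was 17.4 ± 6.17 CPM in controls and 2.88 ± 0.959 CPM in mutants (SD, n = 3 each), a log2 fold change of -2.59 (SE 0.34, 95% interval -3.36 to -1.82), so that mutant hearts held 0.166 of the control level. Its edgeR adjusted p over all genes was 0.112, which misses the threshold, and its unadjusted p was 5.12e-05. DESeq2, the tool of the study, gave the same fold an adjusted p of 6.43e-13, and edgeR without control replicate 5 gave -2.85 with an adjusted p of 0.00495. Without both control replicate 5 and mutant replicate 5 it was -2.82, with an edgeR adjusted p of 0.0614. Of all genes tested, 31 (0.177%) had a log2 fold change as low or lower.

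**Figure D1:**
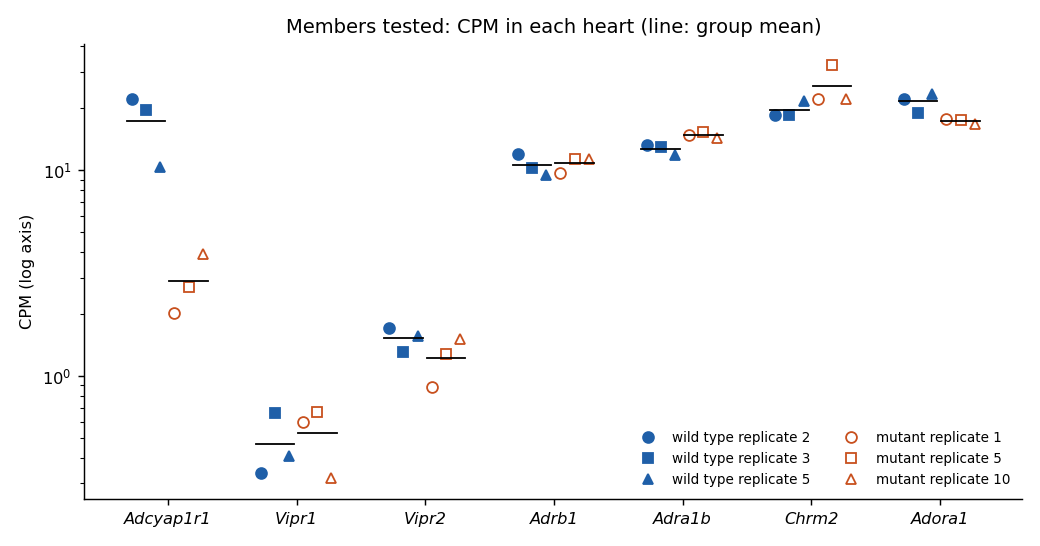
CPM on a log axis of the 7 members that passed the filter on low counts, in each control heart (filled) and each mutant heart (open), with a line at the group mean. Adcyap1r1 lies at 10.4 CPM or more in the controls and at 3.91 CPM or less in the mutants, while the other members differ far less.

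The promoters are shown because the deleted gene encodes a DNA-binding protein and Adcyap1r1 is the member that differed most. Each line gives the 250 bases before the RefSeq start site (GRCm38.p6), 5′ to 3′ on the strand of the gene. The Adcyap1r1 window is chr6:55451728-55451977 on the plus strand, that of Adrb1 is chr19:56721867-56722116 on the plus strand, and that of Adora1 is chr1:134235458-134235707 on the minus strand. Capitals mark matches, on either strand, to any of 4 motifs: GNGTGGGNG and GCGGGGGCG, which resemble sites bound by zinc fingers of the Wt1 and early growth response kind, the cyclic AMP response element TGACGTCA, and its shorter form TGACG, which any TGACGTCA also holds.
Adcyap1r1: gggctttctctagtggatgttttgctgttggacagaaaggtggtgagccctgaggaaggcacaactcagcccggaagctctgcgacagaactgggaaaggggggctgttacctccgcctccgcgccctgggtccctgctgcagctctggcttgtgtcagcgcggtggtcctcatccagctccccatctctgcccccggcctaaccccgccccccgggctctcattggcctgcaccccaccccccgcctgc
Adrb1: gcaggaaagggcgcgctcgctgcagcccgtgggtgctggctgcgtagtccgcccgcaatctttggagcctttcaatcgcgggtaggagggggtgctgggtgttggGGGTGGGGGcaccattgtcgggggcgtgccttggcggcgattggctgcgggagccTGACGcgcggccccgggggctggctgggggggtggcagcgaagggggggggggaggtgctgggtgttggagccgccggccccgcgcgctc
Adora1: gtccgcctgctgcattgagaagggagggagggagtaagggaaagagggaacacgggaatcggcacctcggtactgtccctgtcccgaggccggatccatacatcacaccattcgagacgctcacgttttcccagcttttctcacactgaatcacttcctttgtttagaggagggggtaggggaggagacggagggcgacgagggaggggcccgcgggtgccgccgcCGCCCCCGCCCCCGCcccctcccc
None of these 4 motifs matched in the Adcyap1r1 window, where 65.6% of the bases were G or C. That says only that these letters are not in these bases. Another string, GGGCGG, does occur in this window on the opposite strand. It was tried after the window had been read and was dropped, because it was picked from the sequence itself. The Adrb1 window held 1 GNGTGGGNG and 1 TGACG. The Adora1 window held 2 overlapping matches to GCGGGGGCG. Among the 11 promoters listed for 8 of the members, TGACG also matched in the Vipr1 promoter and in both Adcyap1 promoters. The Adcyap1 windows overlap and hold the same single match. Of all 32851 promoters of this length, 12.7% held GNGTGGGNG, 2.57% GCGGGGGCG, 1.55% TGACGTCA and 17.8% TGACG. A match is a string of letters and not a measured site.

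The ligand PACAP was barely detected. Adcyap1 had 5, 2 and 0 counts in control replicates 2, 3 and 5, against 4, 3 and 6 in the mutants (replicates 1, 5 and 10). Only 3 hearts were over 3 counts, taken here as the limit of detection, so the gene was not tested and no fold is given. Whether the ligand differed was not detectable at this depth.

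The receptors that PACAP shares with VIP had far lower FPKM than Adcyap1r1 in the controls and their CPM overlapped between the groups. Vipr2 was at 1.7, 1.3 and 1.57 CPM in control replicates 2, 3 and 5 and at 0.885, 1.28 and 1.51 CPM in mutant replicates 1, 5 and 10. Mutant replicate 1 was the lowest heart and the other mutants lay within or just below the control range (log2 fold change -0.32, SE 0.29, 95% interval -0.99 to 0.35). Vipr1 had 19, 38 and 18 counts in the controls and 31, 35 and 16 in the mutants, with highs and lows in both groups. Its log2 fold change of 0.17 (SE 0.44, 95% interval -0.85 to 1.18) changed sign without control replicate 2 (-0.03), without mutant replicate 5 (-0.05) or without both replicates numbered 5 (-0.13).

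Because FPKM values are per length, the 3 receptors can be set against each other, on the 1 fixed length that each FPKM uses. Those lengths were 2166 bases for Adcyap1r1, 1575 for Vipr1 and 1232 for Vipr2, against 6601, 5800 and 4463 annotated exon bases. Adcyap1r1 made up 86.5%, 85.9% and 75.8% of the summed FPKM of the 3 receptors in control replicates 2, 3 and 5. In mutant replicates 1, 5 and 10 it made up 46.0%, 46.1% and 55.9%. The sum of the 3 was 9.66 ± 2.99 FPKM in control hearts and 2.62 ± 0.508 FPKM in mutant hearts (SD, n = 3 each). Vipr2 held 11.7%, 10.1% and 20.1% of the sum in the same controls and 35.4%, 38.3% and 37.9% in the mutants, although its own level was not higher there. These shares follow from the Adcyap1r1 values above and were not tested.

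**Figure D2:**
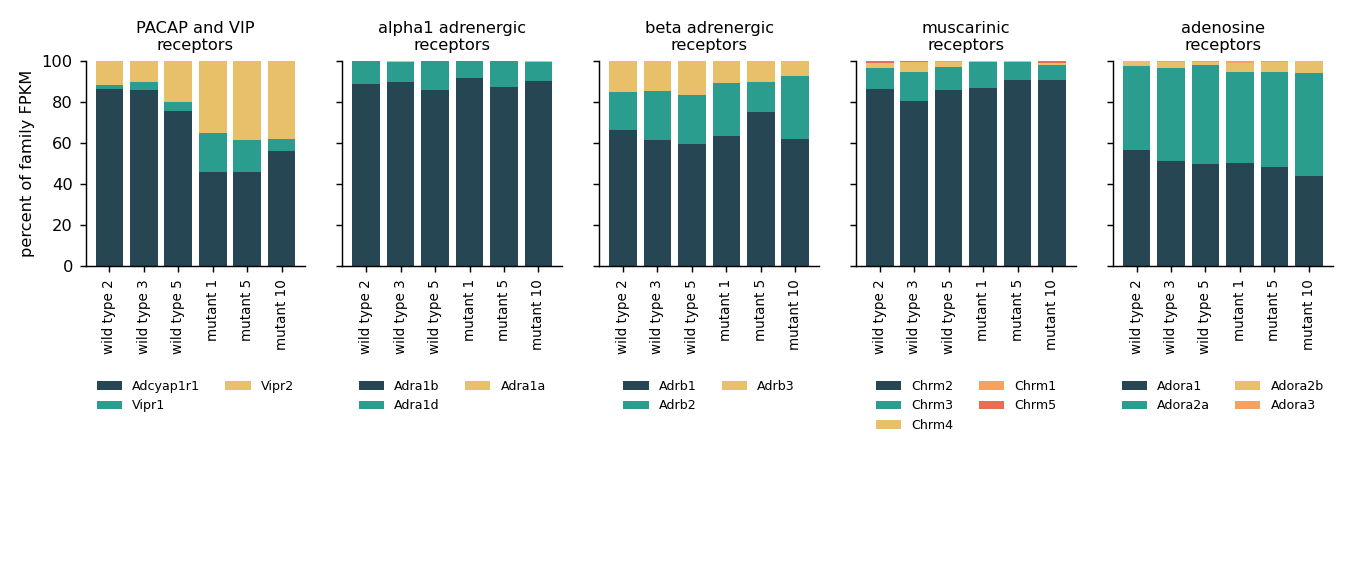
Share of each receptor in the summed FPKM of its family, in percent, for each heart and for 5 receptor families. Adcyap1r1 takes 75.8% or more of the PACAP and VIP receptors in controls and at most 55.9% in mutants while keeping the largest share in every heart. Adra1b, Adrb1 and Chrm2 also have the largest mean share of their family in both groups. Adora1 leads in controls (52.6% ± 3.64 against 44.7% ± 3.47 for Adora2a). In mutants it is level with Adora2a (47.4% ± 3.15 and 47.1% ± 2.77), which leads in mutant replicate 10 (50.1% against 44.0%).

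Among the adrenergic receptors, Adrb1 had nearly equal means in the groups. It was at 12.0, 10.2 and 9.52 CPM in control replicates 2, 3 and 5 and at 9.64, 11.4 and 11.3 CPM in mutant replicates 1, 5 and 10. All mutant hearts lay within the control range, with a log2 fold change of 0.03 (SE 0.14, 95% interval -0.29 to 0.35), an interval that leaves room for small changes either way. The sign turned negative in 8 of 20 alternative settings, the lowest value being -0.09 without control replicate 5 and mutant replicate 5 together. Adrb1 made up 62.4% ± 3.55 of the beta receptor FPKM in controls and 66.9% ± 7.10 in mutants. Its relative Adrb3 went from 15.6% ± 1.08 to 9.57% ± 1.68 of that sum, with no overlap.

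Adra1b was slightly higher in every mutant heart. Its levels were 13.2, 12.9 and 11.9 CPM in control replicates 2, 3 and 5 and 14.9, 15.4 and 14.3 CPM in mutant replicates 1, 5 and 10. The groups did not overlap, but the gap was small (log2 fold change 0.23, SE 0.11, 95% interval -0.02 to 0.48, edgeR adjusted p = 0.909). The other alpha1 receptor of the set, Adra1a, had 3, 7 and 1 counts in controls and 0, 3 and 6 in mutants and was not tested. Adra1b held 88.1% ± 2.18 of the alpha1 receptor FPKM in controls and 89.6% ± 2.23 in mutants.

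The receptors that slow the heart differed in opposite directions, neither passing the adjusted threshold. Chrm2 was at 18.6, 18.5 and 21.6 CPM in control replicates 2, 3 and 5 and at 22.2, 32.6 and 22.2 CPM in mutant replicates 1, 5 and 10. In CPM every mutant value lay above every control value, though only mutant replicate 5 stood clear of the highest control. In FPKM the groups overlapped, with mutant replicate 10 at 6.6 and control replicate 5 at 6.75. The log2 fold change of 0.39 (SE 0.17, unadjusted p = 0.0479, edgeR adjusted p = 0.866) was 0.17 without mutant replicate 5. The highest heart of each group in Chrm2, control replicate 5 and mutant replicate 5, were also those with the most RNA of the foregut genes Epcam, Nkx2-1, Foxa2, Sox2 and Cldn6. The other genes of that list did not follow. Krt18 was lowest in control replicate 5 (16.6 CPM) and highest in mutant replicate 10 (34.6 CPM). Cdh1 was highest in mutant replicate 5 (2.8 CPM) but higher in control replicate 3 (1.86 CPM) than in control replicate 5 (1.43 CPM). Sftpc had 1 count in control replicate 5 and 1 in mutant replicate 5. The summed foregut list, in which Krt18 dominated, overlapped between the groups at 24.5 to 34.4 and 26.9 to 47.7 CPM. Epcam was at 6.07 and 5.04 CPM in control replicate 5 and mutant replicate 5 and at 0.178 to 0.673 CPM in the others, and Nkx2-1 had 64 and 65 counts against 0 to 8. Of the smooth muscle list only Myh11 stood out in both of these hearts, at 12.7 and 15.6 CPM against 2.06 to 3.74. Tagln was lowest in mutant replicate 5 (357 CPM) and Acta2 in control replicate 5 (728 CPM). Kcnj8 was high in control replicate 5 (12.7 CPM) but not in mutant replicate 5 (6.33 CPM). The summed smooth muscle list, in which Acta2, Tagln and Cnn1 dominated, was at 1590 to 1780 CPM in every heart. Without both hearts, an alternative added after seeing the data, Chrm2 had a log2 fold change of 0.25 (SE 0.10, edgeR adjusted p = 0.337) over 2 hearts per group. The part of this RNA in the Chrm2 values was not tested. An RNA on the opposite strand, 9330158H04Rik, overlaps 2.35% of the Chrm2 exon bases.

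Adora1 was at 22.3, 19.0 and 23.5 CPM in control replicates 2, 3 and 5 and at 17.8, 17.6 and 16.8 CPM in mutant replicates 1, 5 and 10. Every mutant heart lay below every control heart (log2 fold change -0.31, SE 0.12, 95% interval -0.57 to -0.05, unadjusted p = 0.0265, edgeR adjusted p = 0.791). The strand setting of the counting is not given in the sources used here. Exons of Mybph on the opposite strand overlap 20.1% of the Adora1 exon bases, and which gene reads there were counted for, if any, is not known. Mybph had 26, 180 and 9 counts in control replicates 2, 3 and 5 and 38, 15 and 17 in mutant replicates 1, 5 and 10. Adora1 had 843 counts or more in every heart.

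Of the 7 members tested, 4 did not overlap between the groups in CPM: Adcyap1r1 and Adora1 were lower in mutants, and Adra1b and Chrm2 were higher. Of all genes tested, 11.2% did not overlap, 6.61% being higher and 4.59% lower in mutants. An unadjusted p under 0.05 was found for Adcyap1r1, Adora1 and Chrm2, beside 5.73% of all genes (3.14% higher and 2.59% lower), and no member had an edgeR adjusted p under 0.05. Nothing is read from these counts, since the members were chosen with this contrast known.

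Ordered by mean FPKM, Adcyap1r1 led the set in control hearts at 8.11 ± 2.95 and was followed by Adora1 at 6.25, Chrm2 at 6.20, Adra1b at 4.57 and Adrb1 at 4.28. The Adcyap1r1 range of 4.77 to 10.4 overlapped those of all 4, and its lead rested on 2 of the 3 controls: in control replicate 5 it was at 4.77, below Adora1 at 6.70 and Chrm2 at 6.75. Adora1 and Chrm2 overlapped each other, as did Adra1b and Adrb1. Vipr2 at 1.25 and Vipr1 at 0.301 came next, and Adcyap1 and Adra1a were last. In mutant hearts Chrm2 led at 7.99, followed by Adra1b at 5.27, Adora1 at 4.95 and Adrb1 at 4.27, with Adcyap1r1 next at 1.31 ± 0.384. There its range overlapped that of Vipr2, at 0.978 FPKM. Both orders rest on the 1 fixed length behind the FPKM of each gene. That length was 2166 bases for Adcyap1r1, of 6601 annotated exon bases. It was 3484 of 5785 for Adora1 and 3187 of 6053 for Chrm2. In CPM, which take no account of length, the control means were 21.6 for Adora1, 19.6 for Chrm2 and 17.4 for Adcyap1r1.

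**Figure D3:**
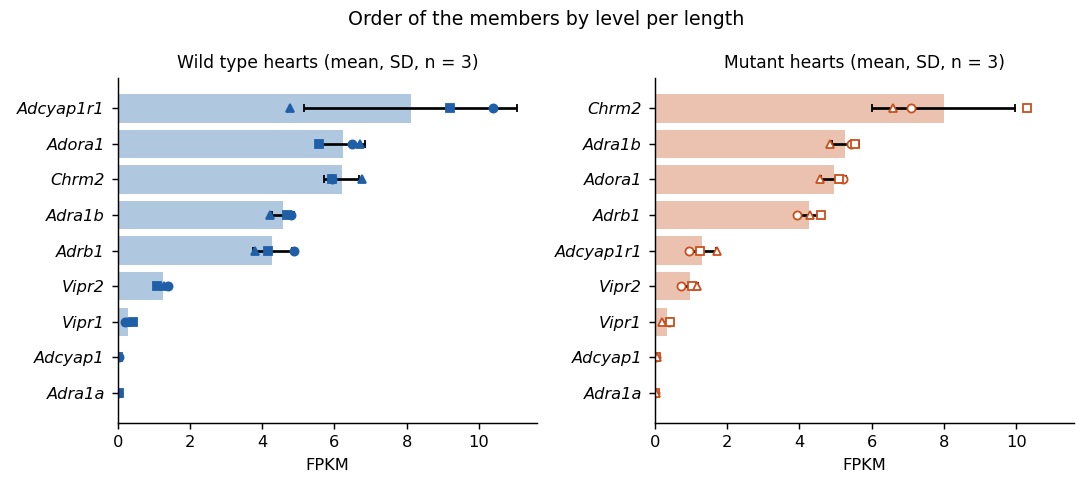
Mean FPKM of the 9 members, ordered from highest to lowest in the control (wild type) hearts and in the mutant hearts, with SD (n = 3) and the value of each heart. Adcyap1r1 is first in controls, at 8.11, and below Chrm2, Adra1b, Adora1 and Adrb1 in mutants, at 1.31. The order rests on the fixed length behind the FPKM of each gene.

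The level of Adcyap1r1 also varied within each group. Of 13 marker lists, 2 put the hearts of both groups in the same order as Adcyap1r1: cardiomyocytes, at 17500, 15900 and 13400 CPM in control replicates 2, 3 and 5 and 15800, 16500 and 17800 CPM in mutant replicates 1, 5 and 10, and epicardium. The summed CPM of 8 epicardial genes (Wt1, Upk3b, Upk1b, Msln, Krt19, Aldh1a2, Tbx18 and Lrrn4) was 480, 388 and 228 in control replicates 2, 3 and 5 and 278, 418 and 541 in mutant replicates 1, 5 and 10. Per 100 CPM of that list, Adcyap1r1 was at 4.61, 5.04 and 4.56 CPM in the controls and at 0.725, 0.648 and 0.724 CPM in the mutants. Within a group the highest of these ratios was 1.11 times the lowest in controls and 1.12 times in mutants, and the group means differed by 6.77 times. Against single genes of the list the ratios varied more, except against Krt19 in mutants. Against each alone, this spread was from 1.14 (Wt1) to 1.62 (Msln) times in controls and from 1.09 (Krt19) to 1.79 (Tbx18) times in mutants. The group means then differed by 5.0 (Aldh1a2) to 12.1 (Upk1b) times. Krt19 did not keep the order of Adcyap1r1 in both groups. For cardiomyocytes the spread was 1.63 and 1.71 times. Over all the other lists it was from 1.45 to 5.73 times in controls and from 1.61 to 2.46 times in mutants. Of the single cardiomyocyte genes only Actn2 kept the order of Adcyap1r1 in both groups. Tnni1 (1640, 1700 and 2190 CPM in control replicates 2, 3 and 5) and Myl4 (3010, 2660 and 3370 CPM) were highest in control replicate 5 among the controls. The epicardial list was singled out among 13 after its values were seen, with 3 hearts in each group, so this is a description. The summed epicardial list itself did not separate the groups. Of its 8 genes, 2 (Upk1b and Msln) were higher in mutants at an unadjusted edgeR p under 0.05 and 0 lower. Over all genes tested the shares were 3.14% higher and 2.59% lower.

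**Figure D4:**
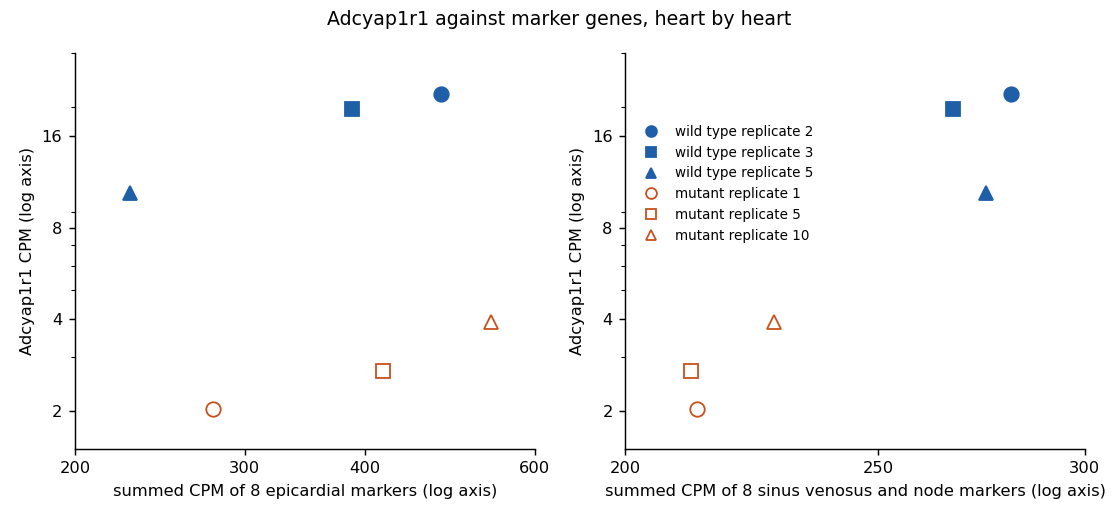
Adcyap1r1 CPM against the summed CPM of 8 epicardial markers (left) and of 8 sinus venosus and sinus node markers (right) in each heart, all axes logarithmic. On the left the controls and the mutants each climb together, with the mutants 6.77 times lower on average per unit of the summed markers. On the right the groups lie apart on both axes.

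Some other marker lists differed between the groups. At an unadjusted p under 0.05, 2.59% of all genes tested were lower and 3.14% higher in mutants, the shares to set beside the counts below. The sinus venosus and sinus node list was at 281, 267 and 275 CPM in controls and 213, 212 and 228 CPM in mutants, with 5 of its 8 genes lower at an unadjusted p under 0.05. The glia and neural crest list was at 37.1 to 52.8 CPM in controls and 28.8 to 36.6 CPM in mutants, with 1 of its 8 genes, Ngfr, lower at an unadjusted p under 0.05. Without Ngfr, left out after its values were seen, the list overlapped, at 32.8, 36.7 and 29.1 CPM in control replicates 2, 3 and 5 and 30.8, 31.3 and 25.4 CPM in mutant replicates 1, 5 and 10. The atrial list overlapped between the groups, at 1550 to 2230 CPM and 1300 to 1610 CPM, with 5 of 8 genes lower and 1 higher at an unadjusted p under 0.05. The macrophage list was higher, at 82.7 to 94.5 CPM and 124 to 139 CPM, with 7 of 8 genes higher at an unadjusted p under 0.05, and the peripheral neuron list overlapped, at 43.2 to 49.8 and 46.7 to 53.1 CPM. None of the markers was at 0 in every heart. Relative to the 13 lists, the control mean of Adcyap1r1 was 4.41 to 8.91 times the mutant mean. The part of these cell types in the receptor values was not tested.

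The 5 genes whose profile over the 6 hearts was most like that of Adcyap1r1, by the root mean square difference of mean-centred log2 CPM, were Ntng2 (0.236), Kirrel2 (0.387), Hydin (0.387), Car4 (0.392) and Hapln4 (0.423). Ntng2, a membrane-anchored netrin, had 84, 77 and 46 counts in control replicates 2, 3 and 5 and 9, 11 and 16 in mutant replicates 1, 5 and 10. Car4, a membrane-bound carbonic anhydrase, had 253, 242 and 75 counts in controls and 38, 34 and 32 in mutants. Both were picked by this likeness, so their low value in control replicate 5 adds no separate evidence. In mutant replicates 1, 5 and 10 Car4 fell slightly (0.731, 0.649 and 0.636 CPM), whereas Adcyap1r1 rose (2.02, 2.71 and 3.91 CPM).

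The lists of the wider signalling pathway were centred near 0. Of 196 genes in 10 lists from ligands to cardiac effectors, 169 were tested, of which 95 were higher and 74 lower in mutants, with a median log2 fold change of 0.05 against -0.001 over all genes. An unadjusted edgeR p under 0.05 was found for 17 of these 169 genes (8 higher and 9 lower), a larger share than the 5.73% of all genes. The lists were chosen with earlier results of these data known, so nothing is read from this share. Of the 169, 0 passed edgeR's adjusted threshold. DESeq2 passed 2, Calca and Ddc. The count of 17 was 35 without control replicate 5, 28 without that heart and mutant replicate 5, 8 without mutant replicate 5 and 10 without mutant replicate 10.

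Among the class B peptide ligands and receptors 14 genes were tested, 7 in each direction. Of these, 2 were higher and 3 lower at an unadjusted edgeR p under 0.05, beside 3.14% and 2.59% of all genes. Calca, which encodes calcitonin and the vasodilator CGRP, was at 7.08, 6.29 and 7.93 CPM in control replicates 2, 3 and 5 and at 2.0, 3.19 and 4.19 CPM in mutant replicates 1, 5 and 10. The groups stood apart (log2 fold change -1.18, SE 0.27, edgeR adjusted p = 0.385, DESeq2 adjusted p = 0.00482). Ramp2, an accessory protein of the adrenomedullin receptor and the most abundant gene of this list by mean FPKM (the measure of abundance in each list), had a log2 fold change of 0.24 (SE 0.09, edgeR adjusted p = 0.778).

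Of the 10 other adrenergic, muscarinic and adenosine receptors tested, 3 were higher and 7 lower. At an unadjusted edgeR p under 0.05, 1 was higher and 3 were lower, beside 3.14% and 2.59% of all genes. Chrm4 had only 13, 29 and 14 counts in controls and 2, 4 and 6 in mutants, a log2 fold change of -2.15 (SE 0.58, edgeR adjusted p = 0.559). Adora2b, the low-affinity adenosine receptor, had 27, 37 and 20 counts in controls and 42, 49 and 60 in mutants (0.89, SE 0.33, edgeR adjusted p = 0.789). Adora2a, the most abundant of the list, was at 13.4 ± 2.56 CPM in controls and 12.6 ± 1.19 CPM in mutants (SD, n = 3 each).

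Transmitter handling gave 10 of 17 genes higher. Ddc, which makes dopamine and serotonin from their precursors, was at 59.1, 73.8 and 64.4 CPM in control replicates 2, 3 and 5 and at 102, 104 and 142 CPM in mutant replicates 1, 5 and 10. Every mutant heart was above every control heart (log2 fold change 0.82, SE 0.16, edgeR adjusted p = 0.273, DESeq2 adjusted p = 9.58e-04). Ada, which breaks down adenosine, had a log2 fold change of -0.45 (SE 0.20), and Adk, the most abundant gene of the list, one of 0.13 (SE 0.12).

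The remaining lists cover the steps downstream of the receptors. The G protein subunits had a median log2 fold change of 0.04 over 26 genes, with Gng2 the lowest in p (-0.25, SE 0.09), Gna15 at 0.50 (SE 0.28) and Gnai2 the most abundant (0.12, SE 0.11). The 9 adenylyl cyclases had a median of 0.01, with Adcy7 at 0.30 (SE 0.14), Adcy8 at -0.77 (SE 0.36) and the abundant Adcy6 at 0.11 (SE 0.12). Of 18 genes of protein kinase A, EPAC and anchoring proteins, 16 had values above 0 and 2 below (median 0.14), yet 0 had an unadjusted p under 0.05. Over all genes tested, 8699 of 17473 were above 0. With 1 heart left out the sign turned for some of the 16, such as Akap5, Akap9 and Akap12. Prkar1a, a regulatory subunit, was at 0.17 (SE 0.11) and Rapgef3 (EPAC1) at -0.22 (SE 0.15).

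The 19 phosphodiesterases had a median of -0.04, with Pde4c at -1.97 (SE 0.63) on at most 24 counts in any heart, Pde4b at 0.24 (SE 0.11) and the abundant Pde6d at -0.07 (SE 0.17). Receptor kinases, arrestins and RGS proteins had a median of -0.07 over 23 genes. Rgs18, known from platelets and blood cells, was at 0.604 ± 0.112 CPM in controls and 1.31 ± 0.439 CPM in mutants (log2 fold change 1.11, SE 0.36). Rgs16 was at -0.28 (SE 0.18) and Adrbk1, the kinase that desensitises beta receptors, at 0.04 (SE 0.09). Among 14 genes of phospholipase C and IP3 receptors, 11 were above 0, with Itpr2 at 0.33 (SE 0.17), Prkcb at -0.38 (SE 0.34) and Plcb4 at 0.24 (SE 0.17). The sign turned for some of the 11, such as Plce1 and Itpr1, with 1 heart left out.

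Of the 19 cardiac effectors, 10 had values above 0 and 9 below. Pln, the phospholamban that restrains calcium uptake until protein kinase A phosphorylates it, was at 708, 850 and 956 CPM in control replicates 2, 3 and 5 and at 1010, 1120 and 1240 CPM in mutant replicates 1, 5 and 10. The groups did not overlap (log2 fold change 0.42, SE 0.15, unadjusted p = 0.0223, edgeR adjusted p = 0.765). Cacna1g, a T-type calcium channel, was at -0.35 (SE 0.20) and Tnni3, cardiac troponin I, at 0.01 (SE 0.17).

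**Figure D5:**
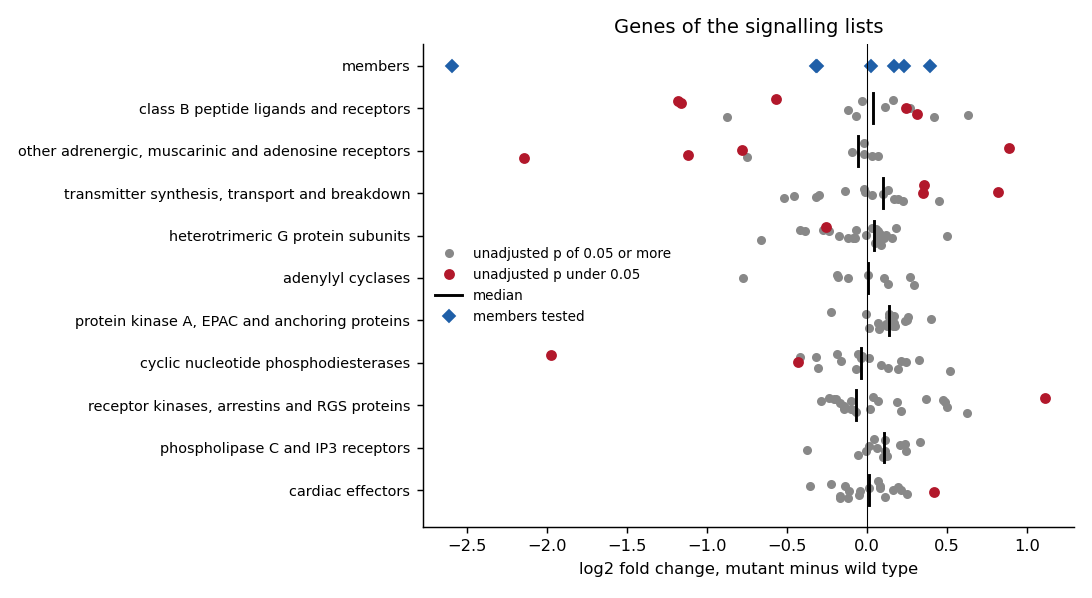
Log2 fold change of mutant over wild type for each tested gene of 10 signalling lists, with the 7 tested members on top, list medians as black lines and genes of unadjusted p under 0.05 in red. List medians lie between -0.07 and 0.14, and Adcyap1r1, at -2.59, lies below every listed gene.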

How the data were processed

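Per the study's methods, the authors ran Trim Galore, mapped with STAR and counted uniquely mapped reads per gene with featureCounts. The submitters' processing notes name HTSeq and DESeq2 instead, and the difference could not be settled here. The authors deposited the raw counts. They also deposited FPKM, each of which is the count divided by 1 fixed length per gene and the total count of the heart. A table of mean FPKM per group was not used.

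Counts of all 46983 genes were fitted with edgeR 4.0.16 (R 4.3.3; TMM, filterByExpr minimums of 10 for the count and 15 for the total, quasi-likelihood F-test, two-sided, Benjamini-Hochberg adjusted p under 0.05, no covariates), leaving 17473. CPM use TMM library sizes. The FPKM were used for levels between genes. A gene with 3 counts or fewer in a heart was taken as at the limit of detection, which covers counting error only. Alternatives were DESeq2 1.42.0, its size factors, no filter, robust dispersion, removal of the length trend, limma 3.58.1 on log2(FPKM + 1) or log2(FPKM + 0.1), and each heart left out; DESeq2 with each heart left out, and edgeR without both hearts that held foregut RNA, were added after seeing the data.

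The members and the gene lists were chosen with earlier results of these data known. The genes named are the 9 members, Wt1, in each of the 10 signalling lists the tested gene with the smallest p in each direction and the one with the highest mean FPKM, and the 5 genes nearest to Adcyap1r1. Markers were 13 lists. The 4 promoter motifs were chosen after the values were seen, and GGGCGG was tried and dropped.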

Additional observations from a re-analysis of the deposited data

How the results depend on the processing

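No paired analysis was possible because the groups share only 1 replicate number (5), and the labels tie no mutant heart to a control heart. Adcyap1r1 stayed lower in mutants in all 20 alternative settings, with edgeR log2 fold changes from -2.87 to -2.38 with 1 heart left out and values from -2.61 to -1.94 with all hearts, and adjusted p-values up to 0.656. It passed the adjusted threshold with DESeq2 (-2.594), with no filter on low counts (-2.582) and without control replicate 5 (-2.854). It also did so with DESeq2 without control replicate 2 (-2.383), 3 (-2.498) or 5 (-2.858) and without mutant replicate 1 (-2.391), 5 (-2.556) or 10 (-2.877). The count of all genes past the threshold went from 0 to 133 with DESeq2, 34 with no filter and 6 with the length trend removed, and from 0 to 44 with 1 heart left out (44 without control replicate 5). With DESeq2 it was 96, 107 and 447 without control replicates 2, 3 and 5 and 138, 71 and 71 without mutant replicates 1, 5 and 10. Without both hearts that held foregut RNA (control replicate 5 and mutant replicate 5) it was 9, the count of pathway genes with an unadjusted p under 0.05 was 28, Adcyap1r1 was at -2.821, and Vipr1 and Adrb1 reversed to -0.134 and -0.091. The count of pathway genes with an unadjusted p under 0.05 went from 17 to between 8 and 35 with 1 heart left out, and to between 10 and 38 with DESeq2 and 1 heart left out. Vipr1 ranged from -0.048 to 0.504 with 1 heart left out, reversing to -0.026 without control replicate 2 and to -0.048 without mutant replicate 5 (DESeq2 -0.030 and -0.046). Adrb1 ranged from -0.041 to 0.13 with 1 heart left out and reversed to -0.011 with the length trend removed, -0.041 without control replicate 5, -0.023 without mutant replicate 5 and -0.005 without mutant replicate 10 (DESeq2 -0.044, -0.020 and -0.006 without the same hearts). The cause of these changes was not tested. Vipr2, Adra1b, Chrm2 and Adora1 kept their direction in all 20 settings and passed the adjusted threshold in none. Adcyap1 and Adra1a were limited by depth.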
